A study of Mus musculus with 6 samples.

Results

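Digestive enzyme genes of the pancreatic acinar cell, with the granule proteins and transcription factors that go with them, were followed in islets of Sec16b-/- and Sec16b+/+ mice. A gene belonged to the set when its symbol in the deposited table equalled 1 of 31 listed names, and 30 of the 31 were found among the 18437 genes of the table. The expression of Prss1, the remaining name, was not analysed here. All 30 passed the filter on low values, which asked for 10 or more in 3 or more of the 6 libraries.

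Acinar cells make up most of the exocrine pancreas that surrounds the islets. They store digestive enzymes as inactive precursors in zymogen granules and release them into the duct. The transcription factor complex PTF1, built from Ptf1a, Rbpjl and an E protein, drives these enzyme genes, and Bhlha15 (Mist1) shapes the secretory machinery of the cell. Endocrine cells of the islet are not known as a source of these enzymes, and islets freed from the pancreas by digestion can carry acinar cells with them.

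RNA from isolated, frozen islets of male mice aged 30 weeks was sequenced in 3 Sec16b-/- libraries (knockout, called KO1, KO2 and KO3 by replicate number) and 3 Sec16b+/+ libraries (wild type, WT1, WT2 and WT3). Sec16b encodes a protein of the endoplasmic reticulum exit sites, from which secretory cargo leaves. How the allele was made, and whether mice were littermates, is not given in the sources used here. The labels do not say that each library came from its own animal, so what the p-values weigh is variation among these samples, which may be technical. Sec16b was at 553, 433 and 749.5 in KO1, KO2 and KO3, against 1655, 773 and 1786 in WT1, WT2 and WT3, in normalized values, which are reads divided by a size factor of the library. The groups did not overlap for Sec16b, though WT2 lay close above KO3, and the log2 fold change was −1.22 (SE 0.35, limma adjusted p = 0.993). Recovered reads per library ran from 22071895 to 26806787. The insulin genes Ins1 and Ins2, which mark the labelled tissue, took 8.27%, 8.79% and 13.0% in KO1, KO2 and KO3, against 9.96%, 10.5% and 13.3% in WT1, WT2 and WT3.

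The trypsinogen genes are close copies on chromosome 6, so the first 90 coding bases of 4 of them are shown to let a reader see how little separates them. Sequences are from GENCODE M21 (GRCm38). Capitals mark bases that differ from Prss2 at the same position, counted from the first base of the start codon.
Prss2: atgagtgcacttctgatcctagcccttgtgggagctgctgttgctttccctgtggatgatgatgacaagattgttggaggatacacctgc
Try4: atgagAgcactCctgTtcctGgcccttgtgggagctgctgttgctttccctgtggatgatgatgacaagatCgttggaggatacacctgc
Prss3: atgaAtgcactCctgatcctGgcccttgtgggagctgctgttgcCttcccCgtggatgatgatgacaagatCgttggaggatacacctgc
Gm10334: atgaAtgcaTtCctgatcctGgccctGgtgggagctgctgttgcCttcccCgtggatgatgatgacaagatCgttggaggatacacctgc
Over the whole coding sequence of 738 bases, Prss3 was 99.1% identical to Gm10334, 96.3% to Prss1, 92.5% to Try4 and 88.6% to Prss2. Gm5771, a further trypsinogen-like gene of the same cluster, was 96.2% identical to Prss3. Of all 50-base stretches of the Prss3 coding sequence, 73.7% were found unchanged in at least 1 of the 7 other genes compared, and of those of Prss2 8.71%. The 7 others included Prss1, Gm5771 and Gm10334. The counting tool is not given in the sources used here, so reads of such stretches could have been split or moved between copies, and single values of Prss3, Try4 and Try5 are less certain than that of Prss2.

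Promoters are shown for 4 genes that the results turn on, as the 250 bases before the start in RefSeq's annotation of GRCm38.p6. Cela1 and Cpa1 held an E-box (CANNTG) next to a TC-box (TTTCCC), the pair of motifs that PTF1 is known to bind, and no such pair was found in this window of Prss2 and Prss3. Both motifs were searched on both strands, with at most 22 bases between them, and capitals mark each such pair.
Cela1, chr15:100687921-100688170, minus strand: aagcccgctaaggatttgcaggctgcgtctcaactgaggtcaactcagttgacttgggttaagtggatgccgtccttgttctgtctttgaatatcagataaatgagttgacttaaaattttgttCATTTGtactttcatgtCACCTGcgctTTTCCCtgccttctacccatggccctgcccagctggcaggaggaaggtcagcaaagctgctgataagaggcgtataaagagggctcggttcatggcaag
Cpa1, chr6:30638968-30639217, plus strand: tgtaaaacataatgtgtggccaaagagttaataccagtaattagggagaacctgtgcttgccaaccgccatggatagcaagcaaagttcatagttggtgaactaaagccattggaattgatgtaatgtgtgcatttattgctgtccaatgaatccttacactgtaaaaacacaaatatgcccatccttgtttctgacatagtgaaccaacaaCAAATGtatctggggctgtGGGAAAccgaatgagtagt
Prss2, chr6:41521526-41521775, plus strand: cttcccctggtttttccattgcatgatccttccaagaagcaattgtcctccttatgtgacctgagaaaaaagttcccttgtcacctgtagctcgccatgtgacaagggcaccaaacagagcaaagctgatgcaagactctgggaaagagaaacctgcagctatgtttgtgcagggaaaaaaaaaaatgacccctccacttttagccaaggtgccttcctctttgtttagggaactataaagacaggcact
Prss3, chr6:41377614-41377863, minus strand: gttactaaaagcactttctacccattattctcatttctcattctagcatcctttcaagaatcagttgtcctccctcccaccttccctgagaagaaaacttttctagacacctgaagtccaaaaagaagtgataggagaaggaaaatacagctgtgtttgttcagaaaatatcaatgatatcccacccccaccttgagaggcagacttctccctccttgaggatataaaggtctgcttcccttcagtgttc
Promoters were found for 25 of the 31 listed names, Prss1 among them. The pair stood in 5 of the 25 (Cel, Cela1, Cpa1, Ctrb1 and Prss1), or 20.0%, and in 4.13% of 27025 promoters of the same length. An E-box, paired or not, stood in 80.0% of the 25 and 66.0% of all, and a TC-box in 32.0% and 21.9%. The letters TATAAA, read on the coding strand only, stood in 9 of the 25, or 36.0%, against 8.12% of all promoters. These matches are letters in a window and do not show binding.

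Acinar transcripts took very different shares of the libraries, and the spread lay within genotypes. The 30 genes took 17.4%, 8.36% and 0.775% in KO1, KO2 and KO3, against 5.73%, 1.24% and 3.52% in WT1, WT2 and WT3. The highest and the lowest share were both in knockout libraries, KO1 and KO3, and the 3 wild type libraries lay between KO2 and KO3. The highest share was 22.5 times the lowest, and the widest exact 95% interval (Clopper-Pearson, for counting error alone) spanned 0.0316 percentage points. The mean share was 8.85% ± 8.33 (SD, n = 3) in knockout and 3.50% ± 2.24 (SD, n = 3) in wild type libraries, and the difference of 5.35 percentage points was smaller than the knockout SD. Without KO1 the difference was 1.07 percentage points, and without KO3 it was 9.38. In bulk RNA, more acinar cells and more acinar RNA per cell cannot be told apart.

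**Figure D1:**
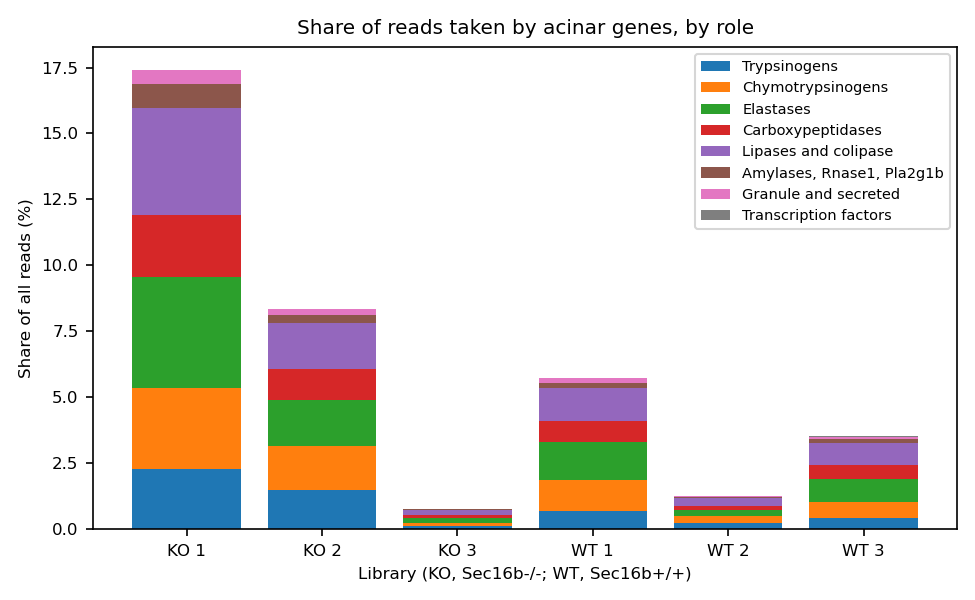
Share of all reads (%) taken by the acinar genes in each library, stacked by role, with knockout libraries left of wild type libraries. KO1 stands at 17.4% and KO3 at 0.775%, and the 3 wild type libraries lie between 1.24% and 5.73%.

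The trypsinogens, precursors of the protease that activates the other zymogens, did not all share an order of libraries. Prss2 was at 346594, 124419 and 11616 in KO1, KO2 and KO3, against 90574, 23473 and 56154 in WT1, WT2 and WT3. Try4 was at 155821, 115419 and 6255 in KO1, KO2 and KO3, against 41333, 7979 and 28745 in WT1, WT2 and WT3. Try5 was at 117064, 100157 and 4365 in KO1, KO2 and KO3, against 24768, 18818 and 14115 in WT1, WT2 and WT3. For Prss2 and Try4 the libraries ran from KO1 down through KO2, WT1, WT3 and WT2 to KO3, and for Try5 WT2 lay above WT3. Try10 was at 854, 399 and 47.8 in KO1, KO2 and KO3, against 437, 199 and 271 in WT1, WT2 and WT3. Prss3 was at 2071, 9034 and 69.8 in KO1, KO2 and KO3, against 530.3, 67.8 and 351 in WT1, WT2 and WT3. Prss3 was highest in KO2, not KO1, and Try10 was higher in WT1 than in KO2. The groups overlapped for all 5 genes, with log2 fold changes between −0.17 for Try10 and 2.23 for Prss3.

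The chymotrypsinogens, elastases and carboxypeptidases, which cut proteins at other residues, followed a single pattern apart from Cela3a. Ctrb1 was at 683197, 321993 and 24478 in KO1, KO2 and KO3, against 217676, 50403 and 118742 in WT1, WT2 and WT3. Ctrl was at 144087, 59569 and 5270.5 in KO1, KO2 and KO3, against 44736, 6851 and 27837 in WT1, WT2 and WT3. Cela2a was at 480819, 163329.7 and 16733 in KO1, KO2 and KO3, against 142053, 23122 and 90972 in WT1, WT2 and WT3. KO1 was again highest and KO3 lowest for these chymotrypsinogen and elastase genes. Cela1 was at 448516, 167678 and 15714 in KO1, KO2 and KO3, against 127847, 20919 and 74533 in WT1, WT2 and WT3. Cpa1 was at 366491, 156916 and 14040.3 in KO1, KO2 and KO3, against 99497, 22285 and 70839.9 in WT1, WT2 and WT3. Cpb1 was at 270809, 119477 and 10552 in KO1, KO2 and KO3, against 75807, 15004 and 55374 in WT1, WT2 and WT3. In each of these 6 genes the 3 wild type values lay between those of KO2 and KO3. Cela3a was at 63.8, 37.5 and 4.98 in KO1, KO2 and KO3, against 28.1, 1.94 and 14.1 in WT1, WT2 and WT3, so it rested on as few as 2 reads in a library, and its lowest value was in WT2. Ctrc, which in human pancreas is known to degrade trypsinogen, and Cela3b kept the order of Cpa1, with a highest library 22.5 and 26.9 times the lowest.

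The lipases, which digest fats with the help of colipase, and the carbohydrate, RNA and phospholipid hydrolases spread as widely. Pnlip was at 483806, 171411 and 18904 in KO1, KO2 and KO3, against 117196, 25042 and 80748 in WT1, WT2 and WT3. Cel was at 314793, 117075 and 12481 in KO1, KO2 and KO3, against 83808, 14919 and 60791 in WT1, WT2 and WT3. Rnase1 was at 60871, 21917 and 1771 in KO1, KO2 and KO3, against 15202, 3042 and 12227 in WT1, WT2 and WT3. These lipase and ribonuclease genes had the same order of libraries as Cpa1. Amy2b was at 126986, 21022 and 1451 in KO1, KO2 and KO3, against 14287, 2680.2 and 8619 in WT1, WT2 and WT3. Per 1000 reads of Amy2a5, the other pancreatic amylase gene of the set, Amy2b had 2465, 914 and 1213 in KO1, KO2 and KO3, against 1159, 1471 and 1046 in WT1, WT2 and WT3. KO1 thus carried more Amy2b for its Amy2a5 than the 5 other libraries did. Among Pnliprp1, Pnliprp2, Clps, Amy2a5 and Pla2g1b, the lipase-related proteins, colipase, amylase and the pancreatic phospholipase, the highest library was between 25.8 and 43.1 times the lowest, in the same order of libraries.

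Among the granule and secreted proteins, Sycn (syncollin) and Zg16 bind the zymogen granule membrane, and Gp2 is its main glycoprotein. Sycn was at 65479.6, 21679 and 2175 in KO1, KO2 and KO3, against 19037, 3338 and 9763 in WT1, WT2 and WT3. Zg16 was at 41709, 17681 and 1271 in KO1, KO2 and KO3, against 11839.9, 1860.1 and 8099 in WT1, WT2 and WT3. Spink1 was at 2561, 1225 and 97.7 in KO1, KO2 and KO3, against 632, 447 and 414 in WT1, WT2 and WT3. Spink1 encodes the inhibitor that keeps trypsin inactive in the gland. Its reads per 1000 of Prss2 were 7.39, 9.85 and 8.41 in KO1, KO2 and KO3, against 6.97, 19.1 and 7.38 in WT1, WT2 and WT3. WT2 thus held more Spink1 for its Prss2 than any other library, while Gp2 followed the common order with a highest library 23.9 times the lowest.

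The acinar transcription factors split into a pair that followed the enzymes and a gene that did not. Ptf1a was at 172, 107 and 6.98 in KO1, KO2 and KO3, against 53.1, 11.6 and 14.1 in WT1, WT2 and WT3. Rbpjl was at 724, 254 and 32.9 in KO1, KO2 and KO3, against 123, 49.4 and 109 in WT1, WT2 and WT3. Bhlha15 was at 1402, 1402 and 1256 in KO1, KO2 and KO3, against 1127, 1329 and 2036 in WT1, WT2 and WT3. The Ptf1a and Rbpjl values had the order of the enzymes. For Ptf1a the lower end of that order rested on 16, 12 and 7 reads in WT3, WT2 and KO3, where counting error could change it. Bhlha15 was far more level than the enzymes, with its highest value, in WT3, 1.81 times its lowest, in WT1. That range was still wider than the median of 1.56 times over all genes tested. Per 1000 reads of Ctrb1, Bhlha15 had 2.05, 4.36 and 51.3 in KO1, KO2 and KO3, against 5.18, 26.4 and 17.1 in WT1, WT2 and WT3. KO3 and WT2, with the least acinar RNA, had the most Bhlha15 for their Ctrb1, which follows from the 27.9-fold range of Ctrb1. The log2 fold change of Bhlha15 was −0.10 (SE 0.21), with a 95% interval from −0.60 to 0.40. Bhlha15 is also known from other secretory cells, plasma cells among them. The part of such cells in its level was not tested.

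**Figure D2:**
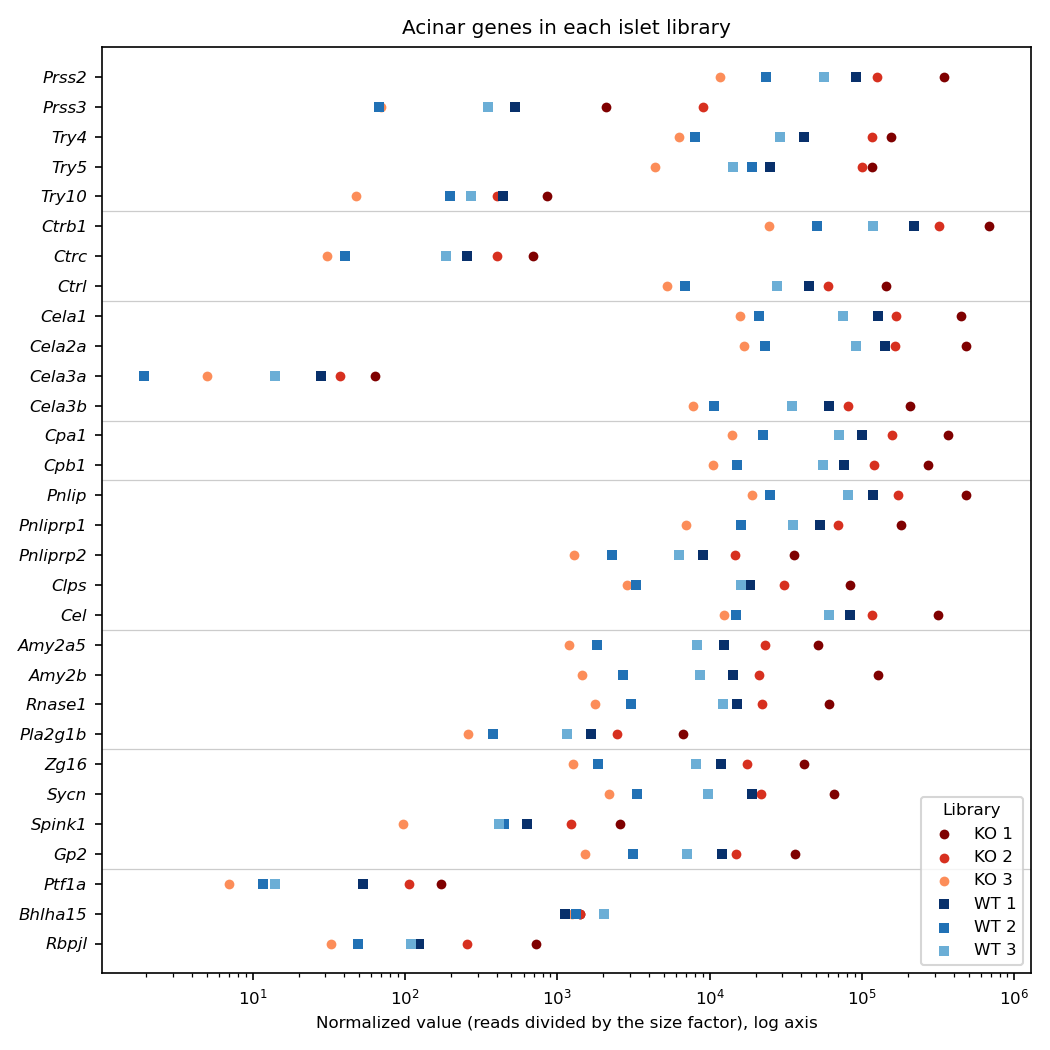
Normalized value of each of the 30 acinar genes (log axis) in the 6 libraries, with knockout libraries as circles and wild type libraries as squares. KO1 is highest for 28 genes and KO3 lowest for 27, and Bhlha15 alone has its 6 points within 1.81-fold of each other.

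Per kilobase of the longest protein-coding GENCODE M21 transcript, the mean normalized value over the 6 libraries was, among the genes with such a transcript, highest for Ctrb1, at 268886. Next came Cela2a (142839), Prss2 (133503) and Cela1 (128641). At the low end per kilobase stood Rbpjl (87.7), Ptf1a (40.3) and Cela3a (26.2). These means are weighted towards KO1, the library with the most acinar RNA. Amy2b was left out of this order, since GENCODE M21 lists it as an unprocessed pseudogene and RefSeq as protein coding.

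The genes moved almost as a unit from library to library. KO1 had the highest value of 28 genes and KO3 the lowest of 27, and 24 genes had the full order KO1, KO2, WT1, WT3, WT2, KO3. The other 6 were Prss3, Try5, Try10, Cela3a, Spink1 and Bhlha15. The median gene of the set was 26.9 times higher in its highest than in its lowest library, against 1.56 times for the 16042 genes tested. The median Pearson r between pairs of the 30 genes over the 6 libraries was 0.979 on the log2 scale, a description, since all genes of a library share its cells and depth.

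To see departures from this shared level, the mean log2 value of the 30 genes was subtracted from each gene in each library. The result is called the relative level. Its SD over the 6 libraries was smallest for Cpa1 (0.072), the gene that followed the shared level most closely, and was under 0.25 for 17 genes. It was 0.5 or more for 8 genes, namely Bhlha15 (1.72), Prss3 (1.48), Try5 (0.75), Try10 (0.68), Amy2b (0.66), Spink1 (0.62), Cela3a (0.58) and Ptf1a (0.54). Cela3a and Ptf1a had low reads, down to 2 and 7 in a library, where counting error alone is large. Just inside that limit stood Ptf1a, and just outside it Amy2a5 (0.39).

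**Figure D3:**
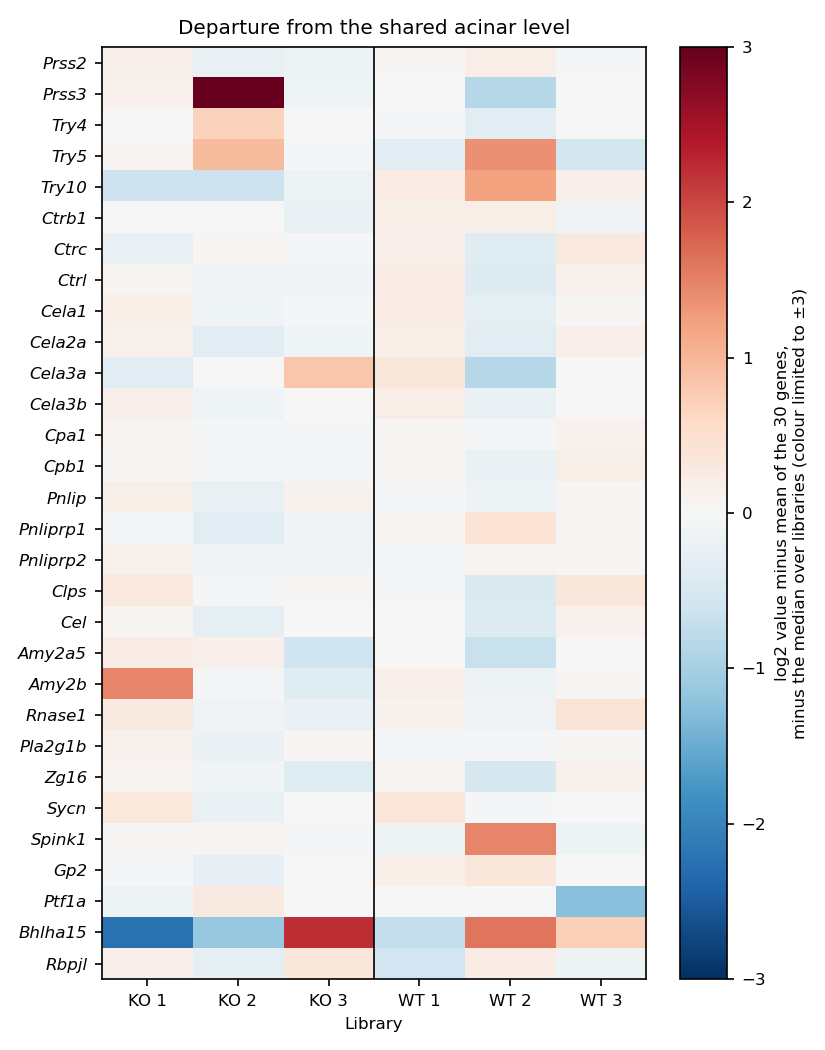
Relative level of each acinar gene in each library (log2 value minus the mean of the 30 genes, then minus the gene's median over libraries), with knockout libraries on the left and colours limited to ±3. Most rows are pale, while Prss3 stands out in KO2, Amy2b in KO1, Try5, Try10 and Spink1 in WT2, and Bhlha15 in nearly every library.

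Prss3 departed most in KO2. Prss3 had relative levels of −3.97, −0.75 and −4.24 in KO1, KO2 and KO3, against −4.10, −4.95 and −4.10 in WT1, WT2 and WT3. KO2 was 3.22 log2 units above the highest of the other 5 libraries. Per 1000 reads of Prss2, Prss3 had 5.98, 72.6 and 6.01 in KO1, KO2 and KO3, against 5.85, 2.89 and 6.25 in WT1, WT2 and WT3. In RefSeq's order on chromosome 6 (GRCm38.p6), Prss3 lies among genes of the table between Try10 and Gm5771, which Gm10334 follows. Try10 had a relative level 1.83 log2 units below the highest other library in KO2. Gm5771 was at 293, 3627 and 3.99 in KO1, KO2 and KO3, against 49.1, 4.84 and 20.2 in WT1, WT2 and WT3. Gm10334 was at 62.6, 630.4 and 1.99 in KO1, KO2 and KO3, against 9.02, 3.87 and 3.52 in WT1, WT2 and WT3. KO2 was 4.72 and 4.18 log2 units above the highest other library in the relative levels of Gm5771 and Gm10334. Gm5771 and Gm10334 were examined in this way after these values had been seen. Gm10334 was below the filter on low values and was not tested. Try4, at the other end of the cluster, was 0.66 log2 units above in KO2, while Prss2 and Try5 were not above the other libraries there. Among genes that passed the filter and reached 50 in a library, Gm5771 and Prss3 had the widest such gap for KO2. Amy2-ps1, an amylase pseudogene, came next with 1.63. Subtracting the acinar level puts KO2 below KO3 for a gene that is level across libraries. The ranking therefore favours genes that follow the acinar level and is no background over all genes.

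**Figure D4:**
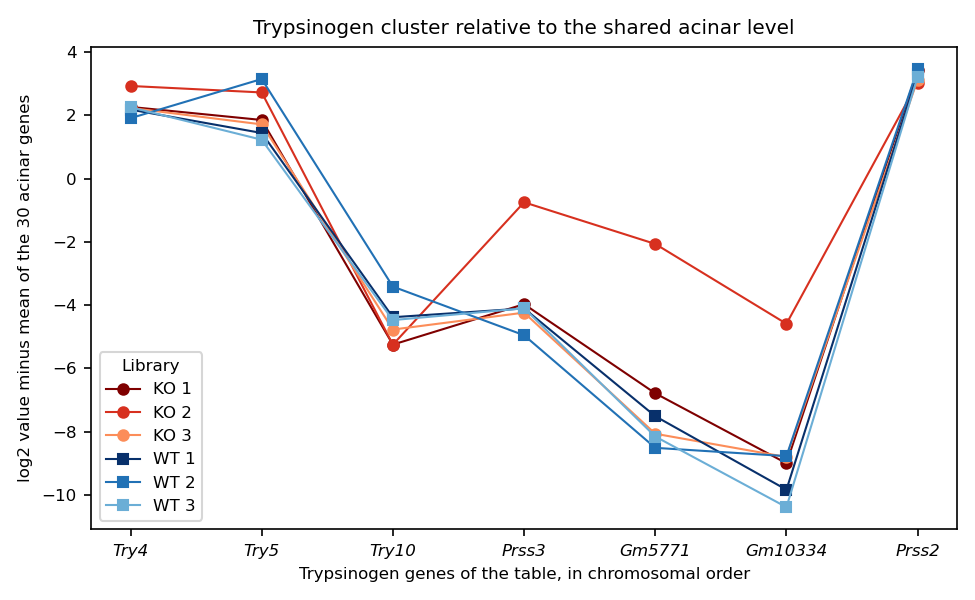
Relative level (log2 value minus the mean of the 30 acinar genes) of 7 trypsinogen genes in their order along chromosome 6, with a line for each library. At Prss3, Gm5771 and Gm10334, KO2 stands above the other 5 libraries by 3.22, 4.72 and 4.18 log2 units.

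Try5 departed in another way, with relative levels of 2.72 in KO2 and 3.15 in WT2, against 1.85 and 1.71 in KO1 and KO3 and 1.44 and 1.23 in WT1 and WT3. Per 1000 reads of Prss2, Try5 had 338, 805 and 376 in KO1, KO2 and KO3, against 273, 802 and 251 in WT1, WT2 and WT3. KO2 and WT2 were thus alike in this ratio and the 4 other libraries were lower. Of the 30 relative levels, those of Try10, Pnliprp1 and Gp2 were lower in all 3 knockout than in all 3 wild type libraries, and 0 were higher in all 3. Over all genes tested, 0.118% separated in this way in either direction, but that share is no background for the set. Most genes of the islet do not follow the acinar level, so subtracting it gives them its order of libraries, in which the groups overlap. Without the subtraction the groups were separate in 9.08% of all genes tested, and 3 of 30 is close to that share. Pnliprp1 had relative levels of 2.48, 2.19 and 2.39 in KO1, KO2 and KO3, against 2.54, 2.92 and 2.54 in WT1, WT2 and WT3. The gap between the groups was narrow, and no test was run on these relative levels.

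No gene of the set passed the test of knockout against wild type islets. Limma on log2(value + 1) called 0 of the 30 genes at an adjusted p under 0.05, where it called 0.0% of the 16042 genes tested. At an unadjusted p under 0.05 it found 0 of the 30, against 3.08% of all genes. The quasi-likelihood test of edgeR and the Wald test of DESeq2, run on recovered reads, also called 0 of the 30. Over all genes, edgeR called 0.0% of those tested, and DESeq2 called 0.114% of the 10555 genes to which it gave an adjusted p. Each of these tools had 1 of the 30 genes at an unadjusted p under 0.05, Prss3 in both, against 3.17% of all genes with edgeR and 3.28% of the 18389 with a p from DESeq2, which was run without the filter. DESeq2 gave no adjusted p for Cela3a and Ptf1a, so its count covers the other genes of the set. The knockout and wild type values overlapped in all 30 genes, where they were separate in 9.08% of all genes tested, 3.85% with knockout higher and 5.22% with knockout lower.

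The log2 fold change of knockout minus wild type was above 0 in 28 of the 30 genes, against 49.4% of all genes tested, with a median of 0.81 beside −0.00302 for all genes. The 95% interval of each of the 30 spanned 0. Prss3 had 2.23 (SE 1.73, limma adjusted p = 0.993), with 0.71 when KO2 was left out. Ctrb1 had 0.68 (SE 1.24, limma adjusted p = 0.993) and Pnlip 0.91 (SE 1.19, limma adjusted p = 0.993). Ptf1a had 1.28 (0.43 without KO1), with an interval from −1.56 to 4.13. For Cpa1, at 0.79, the interval ran from −2.07 to 3.65, so several-fold differences in either direction lay inside it. The median SE was 1.22 over the set and 0.20 over all genes. Without KO1 the median log2 fold change of the set was −0.18 and only 6 of the 30 genes were above 0. It was 0.43 without KO2, 2.18 without KO3, 1.30 without WT1, 0.15 without WT2 and 1.01 without WT3. With edgeR and DESeq2, whose fold changes compare group means and not means of logs, the medians were 1.49 and 1.48.

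**Figure D5:**
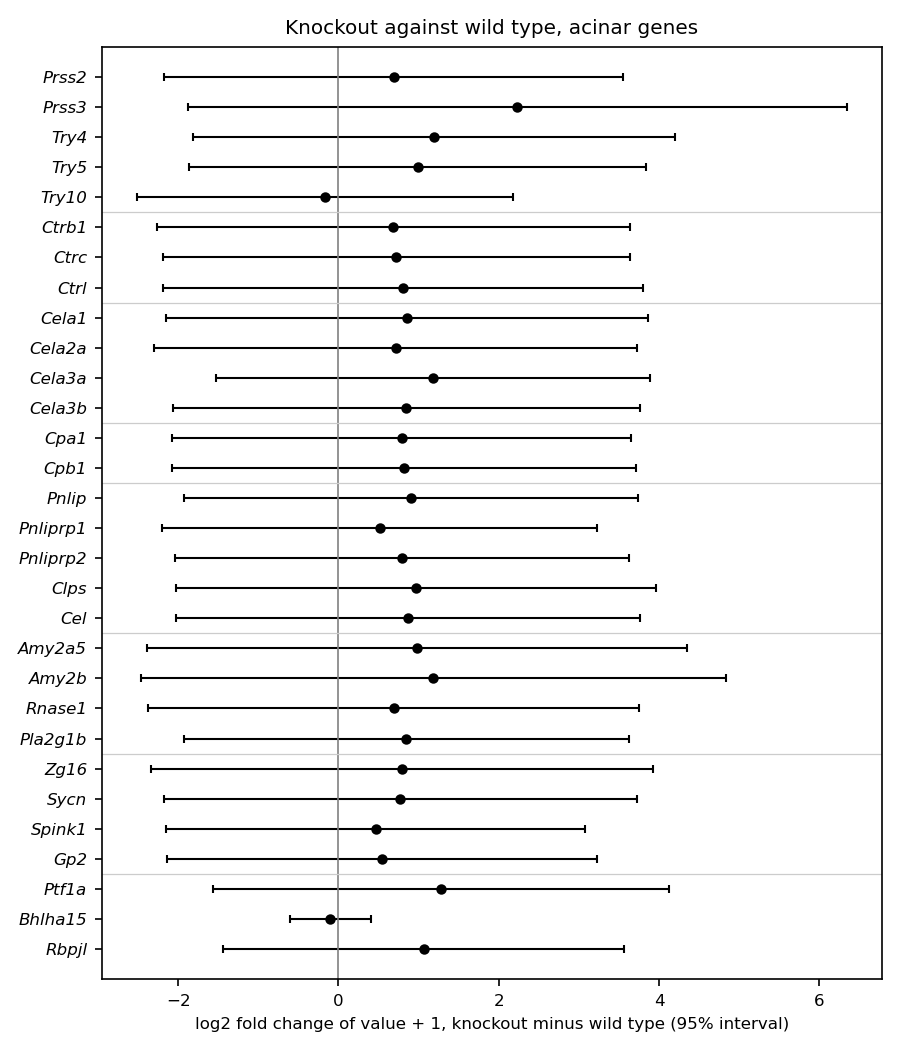
Log2 fold change of value + 1 (knockout minus wild type) of each acinar gene, with its 95% limma interval from 3 libraries a group. All 30 intervals span 0, and the narrow interval belongs to Bhlha15, from −0.60 to 0.40.

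By role, log2 fold changes were between 0.68 and 0.80 in the 3 chymotrypsinogens, between 0.71 and 1.18 in the 4 elastases, and between 0.51 and 0.97 in the 5 lipase genes. They were 0.79 and 0.81 in the carboxypeptidases. The 4 hydrolase genes had values between 0.69 and 1.18, and the 4 granule and secreted proteins between 0.47 and 0.80. Summing the genes of the set within each enzyme family changed no call: the summed trypsinogens had 0.87 (SE 1.21) and the summed amylases 1.12 (SE 1.49). Copies outside the set, such as Gm5771 and Gm10334, were not in these sums, so reads shared with them were not covered.

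The make-up of the acinar reads was steadier than their amount. Of all reads of the 30 genes, trypsinogens took 13.2%, 17.9% and 13.1% in KO1, KO2 and KO3, against 12.2%, 18.1% and 12.0% in WT1, WT2 and WT3. KO2 and WT2 had the larger trypsinogen shares, 1 library of each genotype. Elastases took 24.1%, 21.1% and 23.6% in KO1, KO2 and KO3, against 25.5%, 19.6% and 24.1% in WT1, WT2 and WT3. Lipases and colipase took 23.3%, 20.7% and 24.9% in KO1, KO2 and KO3, against 21.7%, 22.1% and 24.0% in WT1, WT2 and WT3. Neither of these shares separated the genotypes, and the amylase and hydrolase share was largest in KO1, at 5.22%.

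Another 27 acinar genes outside the set were listed for what they do, and 26 were in the table. Limma called 0 of the 26, where it called 0.0% of all genes tested. Log2 fold changes were above 0 in 22 and below in 4, against 49.4% of all genes above 0, with a median of 0.64. With limma 1 of the 26 was at an unadjusted p under 0.05, against 3.08% of all genes. The 3 of smallest p were Rab3d (−0.31, SE 0.13, unadjusted p = 0.0481), a GTPase of secretory granules, Gm5771 (3.25, SE 2.24, unadjusted p = 0.191) and Nr5a2 (0.91, SE 0.74, unadjusted p = 0.260), a nuclear receptor of acinar cells. Rab3d was at 5404, 4753 and 4992 in KO1, KO2 and KO3, against 5836, 5632 and 7364 in WT1, WT2 and WT3. The knockout values of Rab3d lay below all 3 wild type values, as did those of 5.22% of all genes tested. Its adjusted p was 0.993 with limma. Its highest value was 1.55 times the lowest, against 1.81 times for Bhlha15. Of the 6 regenerating protein genes in the list, which acinar cells express under stress, Reg2, Reg3a, Reg3b and Reg3g were higher in WT2 than in both other wild type libraries, and Reg1 and Reg3d were lower. Reg2 was at 5184, 1534 and 159 in KO1, KO2 and KO3, against 1078, 2246 and 777 in WT1, WT2 and WT3. Reg3b was at 2872, 1717 and 81.7 in KO1, KO2 and KO3, against 594, 1551 and 378 in WT1, WT2 and WT3. Reg1 was at 50797, 19758 and 2436 in KO1, KO2 and KO3, against 11947, 5782 and 8974 in WT1, WT2 and WT3. The highest value of each of these genes was in KO1 and the lowest in KO3.

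Genes outside the set whose log2 values over the 6 libraries were most like the mean of the 30 were ranked by Pearson r, as a description. Those named here were, in order, Amy2a1, Erp27, Tmed11, Ggt1, Cuzd1, Aqp8, Gnpnat1, Hs3st3b1 and Gper1, with r from 0.998 to 0.992. Of these, Erp27, Tmed11, Cuzd1 and Aqp8 stood in the list of other acinar genes. Gper1, Aqp8, Tmed11 and Hs3st3b1 had low reads, down to 3, 5, 11 and 18 in a library. Erp27 was at 1708, 731 and 59.8 in KO1, KO2 and KO3, against 464, 121 and 335 in WT1, WT2 and WT3. Erp27, a protein of the endoplasmic reticulum, thus repeated the order of Cpa1. Gnpnat1 was at 980.4, 884 and 707 in KO1, KO2 and KO3, against 839, 742 and 801 in WT1, WT2 and WT3. Gnpnat1, an enzyme of amino sugar synthesis, had the same order over a far smaller range. In all, 72 of 16012 genes outside the set had r above 0.95.

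Other cell types also differed between libraries. Summed values of 8 lymphocyte and plasma cell markers found of 11 listed lay between 7575 and 153081 in knockout libraries. They lay between 259 and 25228 in wild type libraries, with KO1 highest and WT2 lowest. Most of the KO1 sum came from Ighm (103162) and Igkc (39487). The mean log2 value of the 8 markers was 10.58 in KO1 and highest in WT1, at 10.69. Cd3d, Cd3e and Ms4a1 of that list were not analysed here. All 9 macrophage markers were found and summed to between 1845 and 5792 in knockout libraries and between 2453 and 4947 in wild type libraries, with KO3 lowest as in the acinar genes. The 11 duct markers found of 13 lay between 49939 and 96543 in knockout libraries and between 61165 and 82538 in wild type libraries. For duct markers KO1 was highest and KO3 lowest, as in the acinar genes, though WT2 was the highest wild type library. The 10 beta cell markers lay between 2383081 and 3258244 in knockout libraries and between 2601539 and 3558069 in wild type libraries. For beta cell markers, WT3 and KO3 were highest, and KO3 was the library with the least acinar RNA. Alpha and delta cell markers were highest in KO2 (727757) and lowest in WT3 (212964). Stellate cell and fibroblast markers were highest in WT2 (6628) and lowest in WT1 (2105). Endothelial markers were highest in KO1 (14293) and lowest in WT1 (9868). Of the cell type lists given here, KO3 was lowest only for macrophage and duct markers. The 10 immediate early genes respond to tissue handling among other stimuli. Their sums lay between 24461 and 47871 in knockout libraries and between 17903 and 22949 in wild type libraries. The groups did not overlap in these sums, and they were separate in 9.08% of all single genes tested. KO1 was highest, as for the acinar genes, but KO3 lay above all 3 wild type libraries, unlike in the acinar genes. All 10 had log2 fold changes above 0, against 49.4% of all genes tested. Limma called 0 of the 10, where it called 0.0% of all genes, and 3 were at an unadjusted p under 0.05, against 3.08%. The part of these cells and genes in the acinar values was not tested.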

How the data were processed

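RNA of isolated islets was sequenced in 6 libraries, 3 per genotype, and groups and replicate numbers come from the sample labels. HISAT2 aligned the reads, per the submitters' processing notes. How reads were counted, on which build and whether by strand is not given in the sources used here, so reads may be split between near-identical, overlapping or antisense genes. The authors deposited a signal, not raw counts. Within 0.01 reads, 100% of values were whole multiples of a step of their library, as reads divided by a size factor would be. The value of 1 read ran from 0.879 to 1.23. The table holds 18437 genes and 0 values at zero, so each had at least 1 read in every library, and genes silent in a library were not analysed here.

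The filter left 16042 genes. Limma 3.58.1 (R 4.3.3) fitted knockout minus wild type on log2(value + 1) with a mean-variance trend, two-sided, with Benjamini-Hochberg adjustment over all genes tested at 0.05. Fold changes are therefore on the log2(value + 1) scale, which understates the change of low genes. Recovered reads went through edgeR 4.0.16 and DESeq2 1.42.0 as alternatives. Shares have exact Clopper-Pearson intervals (scipy 1.17.1). Coding sequences were aligned with Biopython 1.88. Replicates differed by far more than sampling noise (chi-square per degree of freedom 57.0 to 327), so no library was a copy. The member genes and lists were chosen with earlier results of these data known. Values in every library are given by a rule that took the 2 genes of highest mean in each role, the 2 of smallest p in each direction and those whose relative level had an SD of 0.5 or more. Genes outside the set were the 10 of most alike profile, skipping predicted genes (1 of them is not reported here), the 3 other acinar genes of smallest p, Sec16b and the insulin genes. Further genes named, namely Gm10334, Amy2-ps1, the other amylases, the Reg genes, Cckar, Gata4, Ighm and Igkc, were chosen after their values were seen.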

Additional observations from a re-analysis of the deposited data

How the results depend on the processing

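No acinar gene was called under any alternative run. These were pseudocounts of 0.5 and 10, no filter and a minimum of 50, 2 other scalings, limma without a trend, edgeR and DESeq2. The others were a replicate block, genes of the set summed into enzyme families, and leaving out each library. Over all genes DESeq2 called 12, where limma called 0. The labels give both genotypes the same replicate numbers. Same-numbered libraries deviated together for numbers 1 and 3 (r across genes = 0.430 and 0.365) but not for number 2 (r = 0.00366), so the numbers were not taken as pairs. With the replicate block the median log2 fold change stayed at 0.81 with 0 calls. The block changed no other call. Scaling by the trimmed mean of M-values (TMM) and to reads outside acinar genes gave medians of 0.81 and 0.83.

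The direction rested on KO1: without it 22 of 30 genes changed sign, without WT2 4 did, and without KO3, WT1 or WT3 1 did each. Try10 also changed sign with edgeR (0.53) and DESeq2 (0.52). With each library left out in turn, log2 fold changes ran as follows: Prss2 −0.37 to 2.08, Try10 −1.04 to 1.02, Ctrb1 −0.30 to 2.10, Ctrc −0.15 to 2.07, Ctrl −0.21 to 2.18, Cela1 −0.19 to 2.23, Cela2a −0.35 to 2.07, Cela3b −0.17 to 2.20 and Cpa1 −0.20 to 2.15. For the next genes they were Cpb1 −0.16 to 2.18, Pnlip −0.12 to 2.22, Pnliprp1 −0.50 to 1.85, Pnliprp2 −0.23 to 2.18, Clps −0.077 to 2.35, Cel −0.15 to 2.18, Amy2a5 −0.12 to 2.59, Amy2b −0.32 to 2.90 and Rnase1 −0.41 to 2.14. Then came Pla2g1b −0.17 to 2.17, Zg16 −0.25 to 2.27, Sycn −0.31 to 2.14, Spink1 −0.49 to 1.85, Gp2 −0.44 to 1.85 and Bhlha15 −0.28 to 0.14. The 6 genes above 0 whichever library was left out had ranges of Prss3 0.71 to 4.21, Try4 0.34 to 2.66, Try5 0.16 to 2.53, Cela3a 0.23 to 2.20, Ptf1a 0.43 to 2.65 and Rbpjl 0.073 to 2.28. Depth was ample for most genes, while Cela3a, Ptf1a, Ctrc, Rbpjl and Try10 had under 50 reads in at least 1 library. With 3 libraries a group, an exact permutation test of a single gene cannot give a p below 0.1.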

Other observations

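The amylase cluster on chromosome 3 was examined after the departures of single libraries had been seen. In RefSeq's order (GRCm38.p6) Amy2b is followed among genes of the table by Amy2-ps1, Amy2a5, Amy2a4, Amy2a3, Amy2a2, Amy2a1 and Amy1. Amy2a4 was at 38308, 3140.0 and 1237 in KO1, KO2 and KO3, against 6955, 2087 and 3690.3 in WT1, WT2 and WT3. Amy2a3 was at 52411, 24495 and 1916 in KO1, KO2 and KO3, against 19811, 4657 and 11181 in WT1, WT2 and WT3. Amy2a1 was at 35276, 15317 and 1061 in KO1, KO2 and KO3, against 8622, 1619 and 6413 in WT1, WT2 and WT3. Amy2a1 and Amy2a3 had the order of the enzyme genes at large, while KO2 had less Amy2a4 than KO1, WT1 and WT3. In relative level Amy2a4 was at −2.27 in KO2, and between −0.71 and 0.24 in the other 5 libraries. Amy2-ps1 was at 68.7, 175 and 3.99 in KO1, KO2 and KO3, against 21.1, 4.84 and 13.2 in WT1, WT2 and WT3, so KO2 exceeded KO1 in this pseudogene as in Prss3. The amylase genes are close copies of each other, and reads could have been shared between them.

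Cckar was at 626, 160.2 and 14.0 in KO1, KO2 and KO3, against 77.2, 138 and 124 in WT1, WT2 and WT3. Cckar encodes the receptor through which cholecystokinin stimulates acinar secretion, and its KO1 value was the highest and its KO3 value the lowest, though the 3 wild type values did not have the order of the enzymes. Gata4 was at 399, 202 and 39.9 in KO1, KO2 and KO3, against 109, 147 and 61.5 in WT1, WT2 and WT3. Gata4, a transcription factor of the exocrine lineage, was likewise highest in KO1 and lowest in KO3.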
